A study of Mus musculus with 8 samples.

Results

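The genes described here are the cytosolic ribosomal protein genes of the mouse, measured in retinas that lost *Lhx2* in the progenitors and in control retinas. They were chosen by symbol alone: protein-coding genes named *Rpl* or *Rps* with a number, an optional letter a, x, y or l and an optional further number, plus *Rplp0*, *Rplp1*, *Rplp2* and *Rpsa*. The rule found 82 of 28432 genes in the count table, 50 of the large and 32 of the small subunit, and 80 of the 82 passed the filter on low counts that 13891 of all genes passed. The other two, *Rpl3l* and *Rpl39l*, had 0 to 4 reads in every sample.

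RNA was sequenced from 8 embryos at E15.5, with both retinas of 1 embryo as 1 sample. The 4 *Lhx2* CKO embryos carried 1 floxed and 1 null allele of *Lhx2* (Lhx2flox/KO), and the 4 control embryos carried 1 floxed and 1 wild-type allele (Lhx2flox/+). All 8 embryos were heterozygous for Hes1CreERT2, an inducible Cre knocked into 1 copy of the *Hes1* locus and driven by it in retinal progenitors, and all were exposed to tamoxifen, 0.15 to 0.2 mg per g, given to the dam by gavage at E11.5. They also carried a Cre reporter, by which embryos were selected, and came from 3 litters over 2 days that the sources used here do not assign to samples.

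Total counts were 13955259 to 19099937 in CKO samples and 13143587 to 15063867 in control samples, which is deep for these genes: those that passed averaged 560 to 13722 normalized counts in CKO retinas and 725 to 16142 in control retinas (counts scaled for depth by median-of-ratios size factors). *Lhx2* itself had 2557 to 2868 normalized counts in CKO samples and 3081 to 3631 in control samples, but whole-gene counts include exons outside the floxed part and do not check the deletion. In all genes tested, 8.61% were called at an adjusted p below 0.001 and 33.3% at an adjusted p below 0.05 by edgeR's quasi-likelihood test. CKO replicate 1 and control replicate 3 stood apart from the other samples of their genotype on the second component of all genes, and the share of counts, the calls over the 80 genes and the genes whose value or call turned on them are given with and without both. CKO replicate 1 and control replicates 1 and 4 were female by *Xist* and Y-linked reads.

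A cytosolic ribosome is made of a small subunit, which reads the mRNA, and a large subunit, which forms the peptide bond. Each of its proteins is present in 1 copy, apart from the stalk proteins P1 and P2, and the genes are expressed in all cells, with higher output in cells that grow and divide. Many of their mRNAs start with a C followed by a run of pyrimidines (C or T), the terminal oligopyrimidine or TOP motif, through which the mTORC1 kinase controls their translation. During retinal development, dividing progenitors give rise to neurons that have left the cell cycle.

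Sequence around the start of transcription was read from RefSeq windows on GRCm38.p6, which matched 62 of the 82 genes. A run of at least 8 C or T was sought within 20 bases on either side of an annotated start, on the strand that reads as the mRNA. It was present in 48.4% of these genes, against 18.4% of all 27025 genes with a window and 18.2% of mitochondrial ribosomal protein genes. The same run written in A and G, as the other strand would show it, was present in 8.06% of the ribosomal protein genes and in 20.2% of all genes. The letters CTTTCC were found on the mRNA-like strand in 17.7% of the ribosomal protein genes, against 2.3% of all genes. On the other strand they were found in 0 of 62, against 2.03%. The letters GGAAGT, on either strand of the 300-base window, were found in 48.4% of the ribosomal protein genes, against 26.5% of all genes. The windows below show the genes with the most and the least negative change among those with a run of 8 (*Rps27l* and *Rpl7a*) and among those without (*Rplp0* and *Rpl27*), together with 2 genes that passed the stricter cutoff (*Rpl35a* and *Rpl28*). Each gives 15 bases before and 15 from the start, 5′ to 3′ on the gene's strand, with the longest C or T run in capitals.
Rps27l (chr9:66946071-66946100, plus strand): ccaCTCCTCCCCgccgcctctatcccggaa
Rpl7a (chr2:26910792-26910821, plus strand): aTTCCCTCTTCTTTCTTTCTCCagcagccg
Rpl35a, second of 3 annotated starts (chr16:33056467-33056496, plus strand): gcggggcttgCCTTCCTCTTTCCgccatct
Rpl28 (chr7:4792950-4792979, plus strand): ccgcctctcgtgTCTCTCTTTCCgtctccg
Rplp0 (chr5:115559452-115559481, plus strand): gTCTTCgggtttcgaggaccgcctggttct
Rpl27 (chr11:101442230-101442259, plus strand): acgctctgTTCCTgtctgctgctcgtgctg

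The genes gave a smaller share of all reads in CKO retinas. They held 1.88, 2.01, 2.02 and 2.02% of all counts in CKO replicates 1 to 4, against 2.36, 2.26, 2.58 and 2.28% in control replicates 1 to 4. Every CKO sample was below every control sample, with means of 1.98 ± 0.0668% in CKO and 2.37 ± 0.145% in control retinas (SD, n = 4 each), a ratio of 0.836. Without CKO replicate 1 and control replicate 3 the means were 2.01 ± 0.0087% and 2.30 ± 0.0536%, a ratio of 0.875. Among males the ratio was 0.833 (3 CKO and 2 control embryos), and among females, with 1 CKO and 2 control embryos, it was 0.81. Each of these ratios includes an outer library. Control replicate 3 was 1 of the 2 male controls, and CKO replicate 1 was the only female CKO embryo. The share does not depend on scaling between samples, and the proportion taken by mitochondrially encoded genes overlapped (1.1 to 1.5% in CKO, 1.17 to 1.35% in control samples). Of 24 mitochondrially encoded genes tested, 6 were higher and 0 lower at 0.05, beside 15.9 and 17.4% of all genes. With all mitochondrially encoded genes left out of the total, the ribosomal protein genes held 2.01 ± 0.0652% in CKO and 2.40 ± 0.146% in control samples. That is a ratio of 0.836, and the gene-by-gene test was not run without them.

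**Figure D1:**
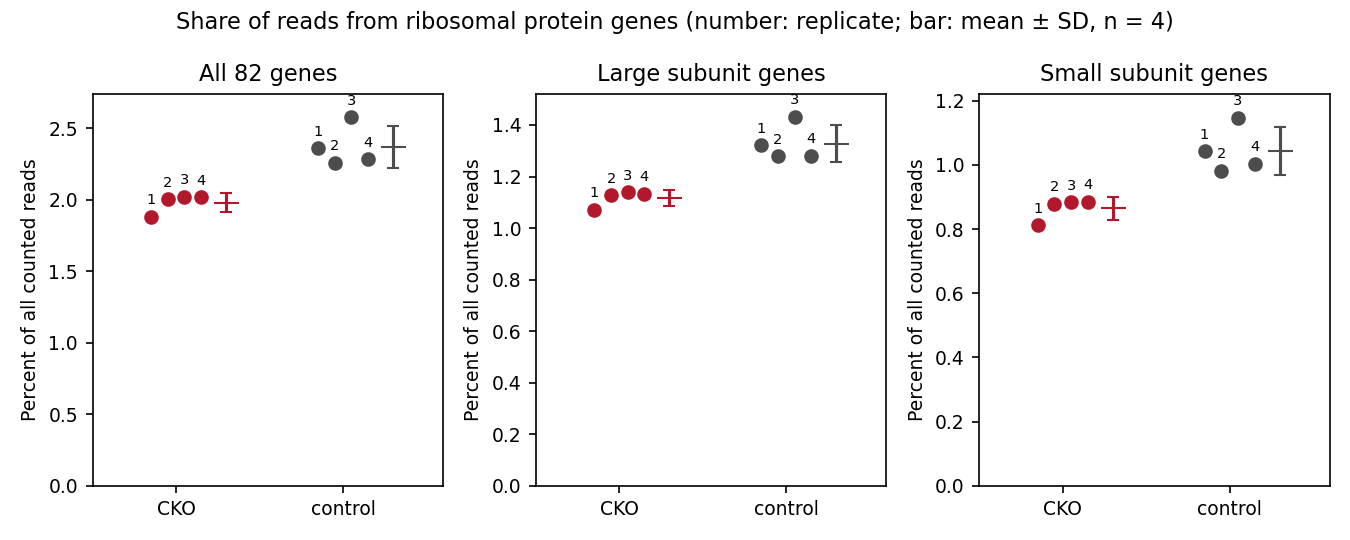
Percent of all counted reads that came from the 82 ribosomal protein genes, the 50 large subunit genes and the 32 small subunit genes, by sample, with CKO left of control. Points are samples with their replicate number and bars give mean ± SD (n = 4). All CKO samples lie below all control samples in each panel, with CKO replicate 1 lowest and control replicate 3 highest.

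Both subunits contributed about equally. The large subunit genes held 1.07 to 1.14% of counts in CKO samples and 1.28 to 1.43% in control samples, a ratio of means of 0.841. The small subunit genes held 0.811 to 0.884% and 0.981 to 1.15%, a ratio of 0.828. Without both outer libraries the ratios were 0.876 and 0.875. Counts of the large over those of the small subunit were 1.29 ± 0.0182 in CKO and 1.27 ± 0.0234 in control samples (SD, n = 4 each), and the genotypes overlapped.

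Gene by gene the change was small and of the same sign throughout. All 80 genes tested had a negative log2FC (CKO over control), of -0.37 to -0.09 with a median of -0.24, or a fold of 0.773 to 0.939 with a median of 0.85. Of all genes tested 49.2% had a negative and 50.8% a positive log2FC, and their median was 0.01. The quartiles of the ribosomal protein genes were -0.27 and -0.18, against -0.17 and 0.19 for all genes. The genes are not independent of each other, since they were counted in the same 8 samples.

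At the study's cutoff, an adjusted p below 0.001, 4 of the 80 were called lower in CKO retinas (*Rpl35a*, *Rpl28* and *Rpl17* among them), beside 4.97% of all genes tested, and in this test the share is near the background. None was called higher, beside 3.64% of all genes. At an unadjusted p below 0.05, 0 of the 80 were higher and 74 lower. Of all 13891 genes tested, 6055 passed that unadjusted cutoff, 2953 of them higher. At an adjusted p below 0.001, DESeq2 called 35 lower, beside 8.78% of all genes, and limma voom 2, beside 4.9%. Neither called any higher, so how the count stood to the background depended on the test. At an adjusted p below 0.05, 62 were lower, beside 17.4% of all genes, and 0 were higher, beside 15.9%. In 65 of the 80 every CKO sample had fewer normalized counts than every control sample, beside 17.9% of all genes (33.8% did not overlap in either direction). These 65 held 59 of the 62 genes and 6 others.

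**Figure D2:**
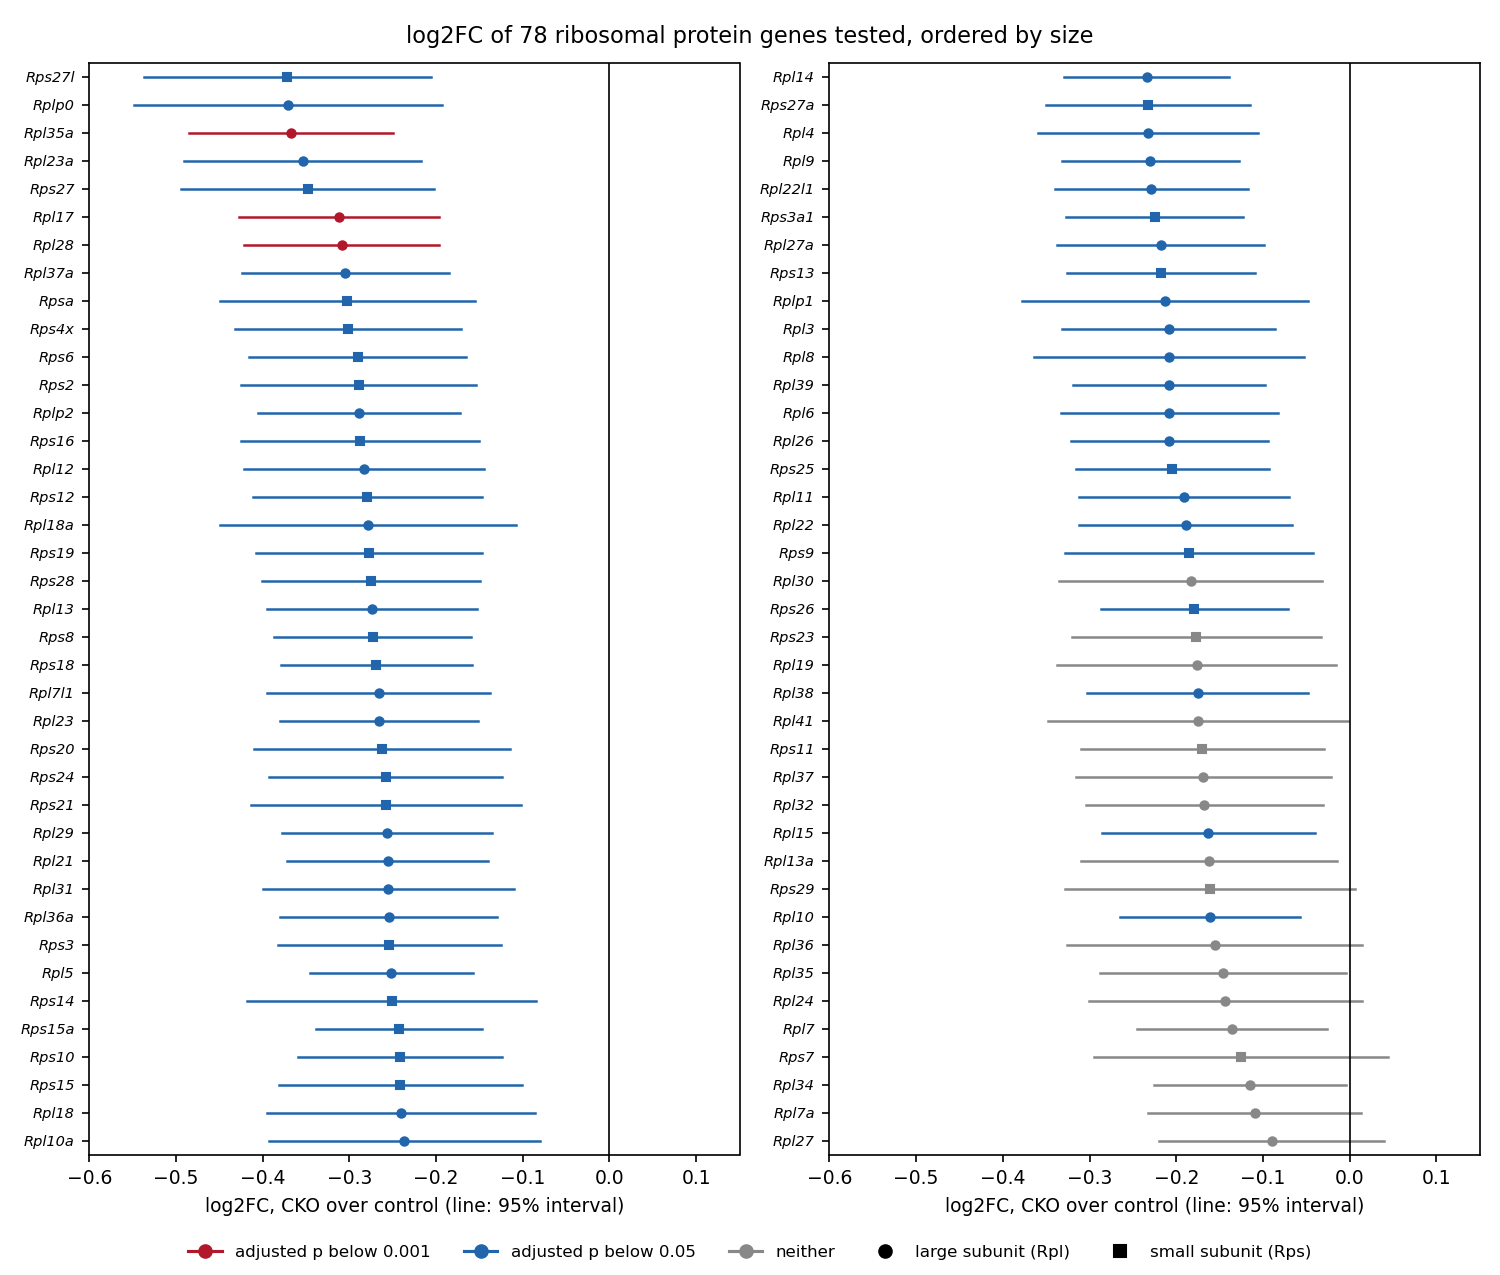
log2FC (CKO over control, edgeR) of 78 of the 80 ribosomal protein genes tested, in order of size, with 95% intervals. Circles are large and squares small subunit genes, and colours give the adjusted p. All points lie left of 0, from -0.37 to -0.09, and the 3 genes in red passed an adjusted p below 0.001.

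Of the genes past the stricter cutoff, 3 large subunit genes are described here. *Rpl35a* (ENSMUSG00000060636, GRCm38 chr16:33056453-33060189), a large subunit protein whose human gene is mutated in some cases of Diamond-Blackfan anaemia, had 1716, 1751, 1858 and 1842 normalized counts in CKO replicates 1 to 4, against 2118, 2371, 2361 and 2402 in control replicates 1 to 4. The genotypes did not overlap, and *Rpl35a* fell with a log2FC of -0.37 ± 0.05 (SE, adjusted p = 0.000375).

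*Rpl28*, a large subunit protein found in animal but not in budding yeast ribosomes, had 2162, 2311, 2201 and 2336 normalized counts in CKO samples, against 2759.9, 2765, 3027 and 2623 in control samples. It fell with a log2FC of -0.31 ± 0.05 (adjusted p = 0.000914), and its exons overlap those of *Ube2s*, an antisense neighbour whose reads unstranded libraries do not separate from its own. *Rpl17*, which lines the exit of the tunnel for the growing peptide, had 2703, 3037, 2912 and 2969 normalized counts in CKO samples and 3448, 3441, 3903 and 3650.5 in control samples. Its log2FC was -0.31 ± 0.05 (adjusted p = 0.000987), so it passed just inside the cutoff, and *Rpl5* lay just outside it at 0.00109. Of these genes *Rpl35a* passed under 12 of 19 alternatives, *Rpl28* under 9 and *Rpl17* under 7, and all 3 had an adjusted p below 0.05 under all 19. Leaving out any 1 of control replicate 4 and the CKO replicates left 0 of the 80 at an adjusted p below 0.001, while leaving out control replicate 3 gave 7.

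The stalk of the large subunit, which recruits and activates elongation factors, is built from *Rplp0*, *Rplp1* and *Rplp2*. *Rplp0*, its base, had 9009, 7561, 7685 and 7971 normalized counts in CKO samples, against 9533, 11117, 9825 and 11281 in control samples. CKO replicate 1, which was lowest for most of the genes, was the highest CKO sample here, and the log2FC was -0.37 ± 0.08 (adjusted p = 0.0046). *Rplp2* was at 3130 to 3403 normalized counts in CKO and 3675 to 4343 in control samples (log2FC -0.29, adjusted p = 0.00172). *Rplp1* had 4102, 4748, 4735 and 4482 in CKO samples and 5566, 4698, 5907 and 4799 in control samples, so the genotypes overlapped, with a log2FC of -0.21 at an adjusted p of 0.0479. *Rplp1* passed 0.05 under 9 of 19 alternatives, and without both outer libraries it had -0.11 (adjusted p = 0.155).

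The 5S particle, in which *Rpl5* and *Rpl11* hold the 5S rRNA and which can bind Mdm2 when it is not in ribosomes, was also lower at the looser cutoff. *Rpl5* had 3712, 4014, 3868 and 3898 normalized counts in CKO samples, against 4444, 4640.4, 4740.2 and 4639 in control samples. Its spread was among the tightest, with a log2FC of -0.25 ± 0.04 (adjusted p = 0.00109), and its exons overlap *Fam69a* on the other strand. *Rpl11* was at 3275 to 3646 normalized counts in CKO and 3809 to 4431 in control samples (log2FC -0.19, adjusted p = 0.0202), and had -0.11 without both outer libraries (adjusted p = 0.03).

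Of the 14 genes of the small subunit head, 12 were lower at an adjusted p below 0.05, with a median log2FC of -0.26. Of all 80 ribosomal protein genes 77.5% were lower at this cutoff, and of all genes tested 17.4%. These shares also stand beside the counts of the other parts below. *Rps19*, the gene most often mutated in Diamond-Blackfan anaemia, had a log2FC of -0.28 (adjusted p = 0.00417). *Rps18*, which reaches the tRNA sites, had -0.27 (adjusted p = 0.00188), and *Rps28* had -0.27 (adjusted p = 0.0036), or -0.21 without both outer libraries. Around the exit of the peptide tunnel 7 of 9 genes were lower, with a median of -0.21 that included *Rpl23a*, a docking site for the signal recognition particle, at -0.35 (adjusted p = 0.0013) and *Rpl26* at -0.21. Over whole subunits, 35 of 48 large and 27 of 32 small subunit genes were lower at this cutoff, with medians of -0.22 and -0.26. *Rps6*, the substrate of S6 kinase, was chosen after its values were seen and had 3048 to 3626 normalized counts in CKO and 4012 to 4395 in control samples (log2FC -0.29, adjusted p = 0.00252).

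The 18 genes that did not pass an adjusted p below 0.05 also had negative values, with adjusted p up to 0.269. There were 13 of the large and 5 of the small subunit among them. *Rpl27*, a large subunit protein, had the smallest change: 1799, 2064, 2137 and 2037 normalized counts in CKO samples, against 2044, 2067, 2316 and 2135 in control samples. The genotypes overlapped, and the interval of its log2FC, -0.09, ran from -0.22 to 0.04. *Rpl24*, a large subunit protein altered in the Belly spot and tail mouse, had 662 to 696 normalized counts in CKO and 700 to 864 in control samples, with a log2FC of -0.14 at an adjusted p of 0.147. The *Rpl24* interval, -0.30 to 0.01, holds both 0 and the median change of the 80 genes, and without both outer libraries its log2FC was -0.08.

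Levels were compared between genes only per kb of transcript. Mean normalized counts per kb ran from 548 to 14090 in CKO and from 659 to 16042 in control samples, with medians of 4170 and 4821. Among the 5 highest were *Rps9*, *Rpl32*, *Rps15* and *Rpl8*, of which *Rps15* (log2FC -0.24, adjusted p = 0.0132), *Rpl8* (-0.21, 0.0416) and *Rps9* (-0.19, 0.048) were lower at the looser cutoff and *Rpl32* (-0.17, 0.058) was not. *Rpl8* passed it under 10 and *Rps9* under 7 of 19 alternatives, and without both outer libraries their log2FC values were -0.11 and -0.10 (adjusted p = 0.0973 and 0.104), while *Rps15* had -0.15 (adjusted p = 0.0181) and *Rpl32* -0.09. The 5 lowest were *Rpl7l1*, *Rps15a*, *Rps20*, *Rpl24* and *Rps27l*. The transcript models used for *Rps15a* and *Rps20* have 5130 and 3706 bases, much longer than the others, so their values per kb are low estimates, and their log2FC values were -0.24 (adjusted p = 0.00152) and -0.26 (adjusted p = 0.0114). Across the 80 genes the log2FC followed neither the level (Spearman's rho 0.02) nor transcript length (-0.12), as descriptions over genes that share samples. Over 13851 of all genes tested, log2FC rose weakly with transcript length (rho 0.17). The part of transcript length in the lower level of the 80 genes was not tested.

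Among the paralogs, *Rps27l*, a p53-responsive copy of *Rps27*, had 496, 593, 564 and 587 normalized counts in CKO samples, against 701, 688, 819 and 693 in control samples. The genotypes did not overlap, with a log2FC of -0.37 ± 0.08 (adjusted p = 0.00307), or -0.26 without both outer libraries, and its main copy *Rps27* had -0.35. Reads of *Rps27l* were 20.9 to 22.8% of those of *Rps27* in CKO and 20.5 to 23.2% in control samples, which overlapped. *Rpl22l1* (log2FC -0.23, adjusted p = 0.00504) was at 19.3 to 21.05% of *Rpl22* in CKO and 19.6 to 21.8% in control samples, and these overlapped too.

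*Rpl7l1* (log2FC -0.27, adjusted p = 0.00485) was at 20.4, 22.7, 21.8 and 21.3% of *Rpl7* in CKO samples, against 22.8, 23.2, 24.2 and 24.4% in control samples. Its main copy had a log2FC of -0.14 (adjusted p = 0.0566), and the ratios of the genotypes met without overlapping. *Rpl3l*, the copy used in heart and skeletal muscle, had 3, 3, 4 and 0 reads in CKO samples and 0, 1, 1 and 2 in control samples. *Rpl39l*, a copy best known from testis, had 0, 0, 1 and 0 reads in CKO and 1, 0, 3 and 3 in control samples. Both were too low to compare. *Rps4l* is a transcribed pseudogene in the count table and not counted among the 82 (log2FC -0.09, adjusted p = 0.626), and *Rpl10l* was not analysed here.

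The 4 X-linked genes were all lower at an adjusted p below 0.05, beside 77.5% of the 80 genes and 17.4% of all genes. *Rps4x*, of the small subunit, had 6518, 7169, 7009 and 7095 normalized counts in CKO samples, against 9053, 8078, 9133 and 8033 in control samples. It showed no overlap, and the female samples were not set apart as a group, since control replicates 1 and 4 were among the highest and the lowest controls (log2FC -0.30, adjusted p = 0.00257). *Rpl36a* had -0.25 (adjusted p = 0.00536), *Rpl39*, at the tunnel exit, -0.21 (adjusted p = 0.00848) and *Rpl10*, which joins the large subunit late, -0.16 (adjusted p = 0.0218). *Rpl10* was the least stable of these and kept an adjusted p below 0.05 under 12 of 19 alternatives. With embryo sex as a covariate, 5 of the 80 genes were lower at 0.001, beside 4.77% of all genes in that fit, and 68 at 0.05, beside 17.7%.

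The genes moved together across samples. Set against the control mean, the median gene was at -0.33, -0.19, -0.22 and -0.20 on the log2 scale in CKO replicates 1 to 4 and at -0.01, -0.08, 0.12 and -0.04 in control replicates 1 to 4. All 80 genes were below their control mean in each of the 4 CKO samples. Of all 13891 genes, 47.9 to 52.1% were below theirs in the CKO samples, with medians within 0.02 of 0. Control samples differed too: 77 of the 80 genes were above their mean in control replicate 3 and 6 in control replicate 2. The first component of the 80 genes held 86.6% of their variance, and pairs of them had a median correlation of 0.88 over the 8 samples and 0.72 over deviations from the genotype means, a description of genes counted in the same libraries.

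**Figure D3:**
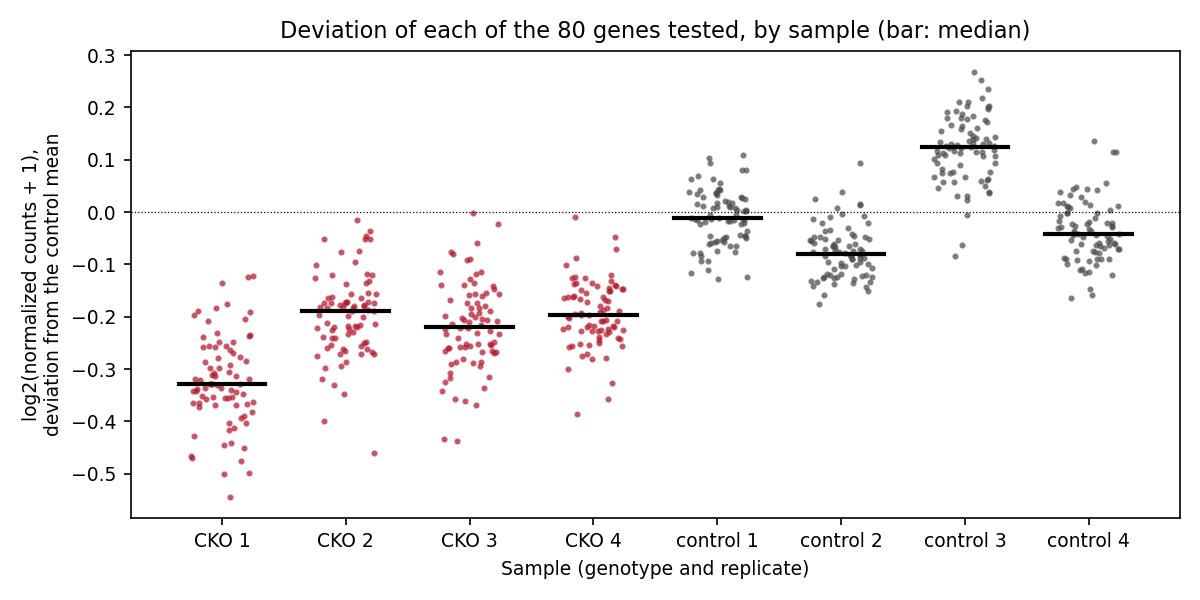
Deviation of each of the 80 genes from its own control mean, on the log2(normalized counts + 1) scale, in each sample, with the CKO samples left of the control samples. Each point is a gene and the bar is the median. All CKO points lie below 0, and CKO replicate 1 (median -0.33) and control replicate 3 (median 0.12) lie farthest out.

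The result kept its direction without the outer libraries. With CKO replicate 1 and control replicate 3 left out, an alternative added after the data were seen, all 80 genes stayed below 0, with a median of -0.17, and 11 were lower at 0.001, beside 7.76% of all genes, and 59 at 0.05, beside 19.5%. The count at 0.001 was thus larger and the median change smaller than over all 8 samples. The median coefficient of variation within a genotype was 4.95% in CKO and 6.94% in control samples, against 7.34 and 8.64% for all genes. All genes tested include genes at much lower counts, and the comparison was not matched for level.

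Many of these genes have processed pseudogenes, which can take or give reads of 50 bases. Of the 80 genes, 11 shared under 25% of their 50-base windows with another annotated gene, and 10 of those 11 were lower at an adjusted p below 0.05, with a median log2FC of -0.24. The 46 genes at 25 to 75% had a median of -0.23 with 35 lower. The 23 genes at 75% or more had -0.24 with 17 lower. At this cutoff 77.5% of the 80 genes and 17.4% of all genes were lower. Ribosomal protein pseudogenes in the table took 0.0029 to 0.0045% of counts in CKO and 0.00196 to 0.00582% in control samples, and reads that match several places were not followed. Exons of 19 of the 82 genes overlap those of a gene on the other strand.

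The pyrimidine run did not separate the genes by size of change. The 30 tested genes with a run of 8 or more had a median log2FC of -0.24, as had the 30 without, and the 2 groups covered nearly the same range (-0.37 to -0.11 and -0.37 to -0.09). *Rpl7a*, with the run of 21 bases printed above, was at -0.11 (adjusted p = 0.155), and *Rplp0*, with at most 5 in the printed bases, at -0.37. Genes with and without GGAAGT also had medians of -0.24 each.

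Ribosomal proteins that the name rule does not take were at similar values. *Rpl36al* had a log2FC of -0.21 (adjusted p = 0.0207), *Gnb2l1*, the scaffold protein Rack1 of the small subunit head, had -0.20 (adjusted p = 0.0352) and *Fau*, whose product holds a small subunit protein fused to a ubiquitin-like one, had -0.18 (adjusted p = 0.0652). The genotypes did not overlap in any of these 3 genes, and *Fau* did not pass at 0.05. Without both outer libraries *Rpl36al* and *Gnb2l1* did not pass either (-0.15 and -0.13, adjusted p = 0.0604 and 0.0737).

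**Figure D4:**
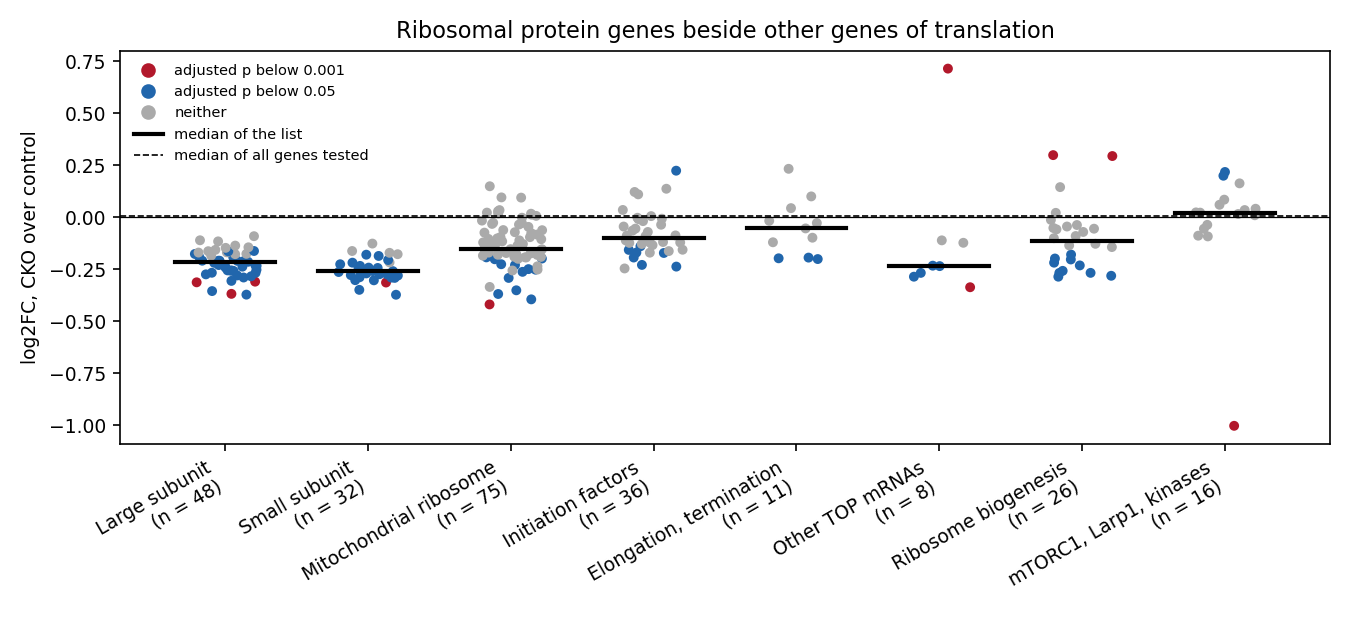
log2FC (CKO over control, edgeR) of the large and small subunit genes beside other lists of genes of translation, with n the genes tested. Each point is a gene coloured by adjusted p, the bar is the median of the list and the dashed line the median of all genes tested, 0.01. The subunits lie wholly below 0 with medians of -0.22 and -0.26, and the other lists spread on both sides of it.

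Other genes of the translation machinery had values on both sides of 0. Of 75 mitochondrial ribosomal protein genes, which build a separate ribosome, 65 had negative values with a median of -0.15. At 0.001, 1 fell (*Mrpl42*, log2FC -0.42, adjusted p = 0.000942), beside 4.97% of all genes. At 0.05, 14 were lower, near the 17.4% of all genes, and 0 higher, beside 15.9%. In 23 of the 75 every CKO sample was below every control sample, beside 17.9% of all genes. Of 36 initiation factors, 30 had negative values, with a median of -0.10 beside 0.01 for all genes. Of the 36, 7 were lower at 0.05, also near the 17.4% of all genes, and 1 higher, beside 15.9%. *Eif3l*, among the lower ones, had -0.23 (adjusted p = 0.00706). Of 11 elongation and termination factors, 3 were lower at 0.05, beside 17.4% of all genes, and 0 higher, beside 15.9%. Their median was -0.05. The 3 were *Eef1b2* (-0.20), *Eef1d* (-0.19) and *Eef1a1* (-0.20), subunits of the factor that brings aminoacyl-tRNA to the ribosome or reloads it. The other *Eef1* genes of the list did not pass 0.05 and had values on both sides of 0. Whether these lists differed from the ribosomal protein genes was not tested.

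Of 8 other mRNAs known to carry a TOP motif, 7 had negative values, with a median of -0.23. Of the 8, 5 were lower at 0.05, beside 17.4% of all genes, and 1 higher, beside 15.9%. *Pabpc1*, the cytoplasmic poly(A) binding protein, had 5374, 5979.7, 5660.1 and 5915 normalized counts in CKO samples, against 7828, 6975, 6957 and 7202 in control samples. It fell with a log2FC of -0.34 (adjusted p = 0.000913), and passed 0.001 under 8 of 19 alternatives and 0.05 under all 19. *Npm1*, which works in ribosome assembly, was at -0.28 (adjusted p = 0.00185) and *Naca*, which shields nascent peptides, at -0.23 (adjusted p = 0.00408). *Vim*, an intermediate filament gene, rose with a log2FC of 0.72 (adjusted p = 2.98e-05). Host genes of snoRNAs, *Gas5* and the *Snhg* genes, some of which also make TOP transcripts, gave 0 of 7 called at 0.05. Of all genes 33.3% were called at 0.05, and the median of the 7 was -0.03. Some of the 7 had wide intervals, so they are not shown to be unchanged.

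Most genes that build ribosomes also had negative values, and 2 rose. Of 26 biogenesis genes, 22 had negative values, with a median of -0.11. Of the 26, 10 were lower at 0.05, beside 17.4% of all genes, and 2 higher, beside 15.9%. Among the lower ones was *Nop58*, a core protein of snoRNA particles, at -0.23 (adjusted p = 0.0031). *Rrn3*, needed by RNA polymerase I to start at rRNA genes, rose with a log2FC of 0.30 (2071 to 2254 normalized counts in CKO, 1733 to 1828 in control samples, adjusted p = 0.000559). *Mycn*, a transcription factor that drives growth genes in many progenitors, rose with 0.30 as well (2872 to 3215 in CKO, 2357 to 2609.9 in control samples, adjusted p = 0.000925). *Rrn3* passed 0.001 under 8 and *Mycn* under 4 of 19 alternatives, and both passed 0.05 under all 19.

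Of 16 genes of mTORC1, Larp1 and the S6 kinases, 1 fell at 0.001, beside 4.97% of all genes. *Eif4ebp1*, an inhibitor of cap-dependent initiation that mTORC1 switches off, had 105, 158, 151 and 122 normalized counts in CKO samples, against 265, 211, 289 and 306 in control samples. It fell with a log2FC of -1.0 ± 0.15 (adjusted p = 0.000349), and no CKO sample reached a control sample. At 0.05, *Eif2ak3*, a kinase that slows initiation under stress (0.20, adjusted p = 0.0243), and *Tsc1*, which restrains mTORC1 (0.22, adjusted p = 0.042), were higher, a count of 2 of 16 beside 15.9% of all genes. *Eif2ak3* passed under 14 and *Tsc1* under 10 of 19 alternatives.

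Markers of some cell types moved with genotype. The summed level of 10 progenitor markers was 41578 to 49043 normalized counts in CKO and 90449 to 98117 in control samples. Of the 10, 8 fell at 0.001, beside 4.97% of all genes, and 2 had positive values, up to 0.13. The summed level of 10 markers of retinal ganglion cells was 81236 to 86698 in CKO and 59220 to 70021 in control samples. Of these 10, 5 rose at 0.001, beside 3.64% of all genes, among them *Pou4f2* with a log2FC of 0.46. Photoreceptor precursor markers overlapped, at 9545 to 10595 in CKO and 9444 to 10388 in control samples. Of 5 tested, 1 was higher at 0.05, beside 15.9% of all genes. Markers of amacrine and horizontal cells also overlapped, at 6649 to 7094 in CKO and 5622 to 6658 in control samples. At 0.05, 2 of 7 were higher, beside 15.9% of all genes, and 1 lower, beside 17.4%. In whole retinas fewer cells of a type and less RNA per cell cannot be told apart.

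Markers of cells from around the retina did not all move in the same direction. Blood markers, summed, were at 609 to 1924 in CKO and 389 to 2449 in control samples and overlapped. Of 6 tested, 0 were called at 0.05, beside 33.3% of all genes. Of 5 endothelial markers tested, 2 fell at 0.001 (*Kdr* and *Cldn5*), beside 4.97% of all genes. The other 3 had positive values, and the median of the 5 was 0.05. Their sum, 2615 to 3412 in CKO and 4322 to 4587 in control samples, was mostly *Kdr*. Of 5 markers of the retinal pigment epithelium, 4 were lower at 0.05, beside 17.4% of all genes, with a median of -1.52. The sum over the whole list overlapped (141 to 508 in CKO, 269 to 450.1 in control samples). *Col1a2*, of mesenchyme, was lower (-1.98) and *Cryba1*, of lens, higher (2.83), both at low counts. The part of any of these cell types in the lower level of the ribosomal protein genes was not tested.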

How the data were processed

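RNA-seq of 8 E15.5 mouse retina samples (4 CKO, 4 control) was used. The authors made poly(A) libraries without strand information, sequenced 50 bases from 1 end and deposited raw counts of reads per gene, unnormalized and not pooled. The submitters' processing notes name TopHat2, Cufflinks, HTSeq and mm10, with versions not given in the sources used here. Genes reaching 20 normalized counts in 3 or more samples entered the test in edgeR 4.0.16 in R 4.3.3 (quasi-likelihood test, TMM scaling, genotype only, Benjamini-Hochberg adjustment over all genes tested). The script was tested on simulated data. Cutoffs were an adjusted p below 0.001, as in the study, and 0.05. log2FC values are unshrunken and SE is that of log2FC. Coordinates and lengths come from GENCODE M21 (GRCm38), in which all 82 genes were found.

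The genes and lists were chosen with earlier results of these data known. The named genes were those past the test, those failing the filter, the 5 highest and 5 lowest per kb, the paralogs, X-linked genes, 5S particle, stalk and proteins outside the name rule, and up to 4 of smallest p in each other list. Alternatives were DESeq2 1.42.0, limma 3.58.1 (voom), other scalings and filters, 1 surrogate variable (sva 3.50.0), embryo sex, a block for the replicate number, and samples left out. Some named genes are not reported here.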

Additional observations from a re-analysis of the deposited data

Results flagged for a closer look

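In each genotype of 4 samples, a sample was marked by Dixon's test where its gap to the nearest other, over the range of the 4, passed the 95% critical value. Chance marks about 1 in 20 groups, and 18 of 168 (10.7%) were marked over genes that share the same libraries. CKO replicate 1 was low for *Rpl12* (2644 normalized counts, the other CKO samples 2815 to 2832), *Rpl22* (3548), *Rps12* (3638), *Rps14* (4446), *Rps15* (4671), *Rps24* (3276), *Rps25* (2282) and *Rps3* (9081), and for the share of all counts held by the ribosomal protein genes (1.88%) and by the small subunit genes (0.811%). Control replicate 3 was high for *Rpl37* (2165 normalized counts, the other control samples 1794 to 1832), *Rps13* (3062), *Rps23* (2628), *Rps27l* (819), *Rps28* (2715) and *Rps29* (3471). Control replicate 1 was low for *Rpl35a* (2118 normalized counts, the other control samples 2361 to 2402). In every case apart from *Rpl35a*, the marked sample lay on the side away from the other genotype.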

How the results depend on the processing

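The sign of the change held: in every alternative all tested ribosomal protein genes were below 0, except that without a filter *Rpl3l* was above it, and the median log2FC was -0.26 to -0.17. The number called lower at 0.001 did not hold. Beside 4 in edgeR it was 35 with DESeq2, 2 with limma voom, 1 with median-of-ratios size factors, 7 with library totals (where the median of all genes was -0.02) and 12 with no filter, and 62 at an adjusted p below 0.05. The number of all genes called was 1196, 2271 with DESeq2, 2055 with no filter and 4619 at 0.05. Leaving out 1 sample gave 0 to 7 of these genes and 686 to 1553 of all genes, and leaving out both outer libraries gave 11 and 2104. At 0.05 the number of these genes was 53 to 69 under all alternatives. Genotypes share replicate numbers, and the same-numbered samples deviated with correlations of 0.14, -0.15, 0.06 and -0.12. Differently numbered samples had -0.26 to 0.25, so these values cannot show whether same-numbered samples shared a litter or a day. With the replicate block 0 of the 80 genes and 676 of all genes were called at 0.001, and 55 of the 80 at 0.05. The cause of the changes in count was not tested. With 4 samples a genotype, the 18 genes that did not pass at 0.05 are not shown to be unchanged.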
